A study of Homo sapiens with 4 samples.

Results

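The endoplasmic reticulum (ER) chaperone and unfolded protein genes are a set of 34 genes that were picked by symbol from the 33538 genes of each expression matrix, and all 34 were found. They were studied in 4 single-cell RNA sequencing (scRNA-seq) libraries of LNCaP, an androgen-sensitive line from a metastasis of a human prostate cancer, and of its derivatives. LNCaP was exposed to 0.1% DMSO, the solvent, for 48 h, and LNCaP-ENZ48 is the same line after 48 h in 10 µM enzalutamide (ENZ), an anti-androgen drug. RES-A and RES-B are LNCaP sublines that grow in the presence of anti-androgens. Stepwise ENZ doses were used to select RES-A, the related drug RD-162 was used for RES-B, and both were in 10 µM ENZ when sampled. Each group is 1 library, so differences between groups were not replicated, none was tested, and a line, its history and its library cannot be told apart.

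The ER folds proteins that are to be secreted or placed in membranes. Nascent chains enter through the SEC61 channel, chaperones such as HSPA5 (BiP, also GRP78) hold them, disulfide isomerases form their bonds, and chains that fail to fold are returned to the cytosol for ER-associated degradation (ERAD). When unfolded chains pile up, the sensors IRE1 (gene ERN1), ATF6 and PERK start the unfolded protein response. IRE1 splices the mRNA of XBP1, cleaved ATF6 enters the nucleus, and spliced XBP1 and ATF6 bind promoters of chaperone and ERAD genes, while PERK slows translation and raises ATF4 and its targets. Prostate luminal cells secrete large amounts of protein, and androgens are known to act on parts of this machinery.

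The promoter letters through which ATF6 and XBP1 are known to act are the ER stress element, CCAAT and CCACG with 9 bases between them, and a second form, ATTGG and CCACG with 1 base between them (ATTGG is CCAAT read on the other strand). Both were searched on both strands in RefSeq promoter windows of 300 bases (250 before and 50 after a start site, GRCh38.p14). Windows were found for 32 of the 34 genes, all but PDIA3 and SPCS1. The first form was in 0.0769% and the second in 0.0541% of the 35116 windows of all genes. Counted per gene, since a gene can have several windows, 0.161% of 27305 genes held either form. Of the 32 genes, 7 held the first form and 3 the second, 10 in all (31.3%). The windows had not been used to choose the genes, but the element was first described in genes of this family. The stretch upstream of HSPA5 is shown because HSPA5 had the largest ratio below. It lies at chr9:125241383-125241593, is written 5′ to 3′ on the gene's strand, and the capitals mark the fixed letters of the element, whose first base is 66 bases before the start site.
HSPA5: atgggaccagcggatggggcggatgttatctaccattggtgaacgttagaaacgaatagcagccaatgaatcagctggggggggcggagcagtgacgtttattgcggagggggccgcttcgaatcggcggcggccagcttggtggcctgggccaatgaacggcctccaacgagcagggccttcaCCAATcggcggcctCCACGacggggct

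The first form in 6 other members is shown next, each read on the strand that gives CCAAT first, so that the fixed letters in capitals and the free bases between them can be compared. HSP90B1 held 2 copies, 1 on each strand, and the CANX copy is shared by windows of several start sites.
HSP90B1, chr12:103930216-103930234: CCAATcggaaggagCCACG
HSP90B1, chr12:103930321-103930339: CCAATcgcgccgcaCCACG
CALR, chr19:12938384-12938402: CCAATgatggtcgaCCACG
CANX, chr5:179698778-179698796: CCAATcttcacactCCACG
CRELD2, chr22:49918554-49918572: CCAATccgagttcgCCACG
PDIA6, chr2:10812853-10812871: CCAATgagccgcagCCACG
XBP1, chr22:28800603-28800621: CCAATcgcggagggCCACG

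The second form was held by an HSPA5 cofactor (HYOU1), a J-protein partner (SDF2L1) and an ERAD scaffold (HERPUD1), with 2 copies at HYOU1.
HYOU1, chr11:119057380-119057390: ATTGGaCCACG
HYOU1, chr11:119057274-119057284: ATTGGaCCACG
SDF2L1, chr22:21642114-21642124: ATTGGtCCACG
HERPUD1, chr16:56932025-56932035: ATTGGgCCACG

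A match is a string of letters and not a bound site, and no factor was measured at these promoters.

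After the cell limits of the study, between 1782 (LNCaP) and 4569 (RES-A) cells and between 50208831 and 60838227 UMIs per library were kept. A UMI (unique molecular identifier) stands for 1 captured RNA molecule, and levels are given as CPM, the count of a gene over all kept cells scaled by the UMI total of the library. The LNCaP cells were deeper (median 27079.5 UMIs) than the cells of the other libraries (12138 to 13676). At most 9 cell barcodes were shared by any pair of libraries. Of the markers of prostate luminal cells, KRT8, KRT18, EPCAM and FOLH1 ranged from 103 CPM (EPCAM in LNCaP) to 918 (KRT18 in RES-B), TMPRSS2 was highest in LNCaP (106) and lowest in RES-A, and the androgen-responsive genes KLK3 and KLK2 were at 2 and 5 UMIs in RES-A. PTPRC, CD3E, COL1A2 and KRT5, markers of leukocytes, fibroblasts and basal cells, were at 0 UMIs in all 4 libraries, PECAM1 and KRT14 were at 0 to 15 UMIs, and COL1A1 was at 1.45 to 3.19 CPM. VIM, a filament gene of mesenchymal cells, was at 2.07 in LNCaP and 2.09 in LNCaP-ENZ48, with 211 in RES-A against 59.9 in RES-B, and its part in the ratios below was not tested.

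RES-B stood apart from the 3 other libraries in most of the ER genes. Gene positions are those of GENCODE 44 (GRCh38), whose start sites can differ from the RefSeq ones. Ratios are log2 CPM ratios with exact 95% intervals in brackets, which cover counting error only. Of the 34 genes, 33 had a mean of at least 10 CPM over the libraries and entered the counts, and SYVN1 (mean 8.54 CPM) did not. EDEM1 passed this minimum only through its level in RES-B, so its call against RES-A supports nothing. RES-B had the highest level in 28 of these 33 genes, and RES-A had the lowest in 21. The shares of all genes with RES-B highest or RES-A lowest were not computed, so these counts are descriptions only. In RES-B against LNCaP, 22 of the 33 were at least 1.5-fold higher, where 14.2% of all 7460 genes past the same minimum were, and 0 were at least 1.5-fold lower, against 8.26% of all genes. The median log2 ratio of the 33 genes was 0.69, with 0.11 for all genes. In RES-A against LNCaP, 2 were higher (XBP1 and ERO1A, all genes 11.3%) and 5 lower (ERN1, CREB3L2, SELENOS, SSR3 and DNAJC3, all genes 11.5%), with a median of -0.12 where all genes had 0.02. In LNCaP-ENZ48 against LNCaP, 0 of the 33 were higher (all genes 0.992%) and 0 lower (all genes 3.19%), with a median of 0.02 where all genes had -0.07. RES-B against RES-A had 29 higher (all genes 12.2%) and 0 lower (all genes 5.83%), with a median of 0.78 where all genes had 0.09. Scaling by TMM factors or DESeq2 size factors, which put the median of all genes in RES-B at 0.01, left 17 in place of 22 higher in RES-B and 28 in place of 29 higher against RES-A. The summed level of the 33 genes was 5309 CPM in LNCaP and 5658 in LNCaP-ENZ48, whereas RES-A had 5286 and RES-B 9879.

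**Figure D1:**
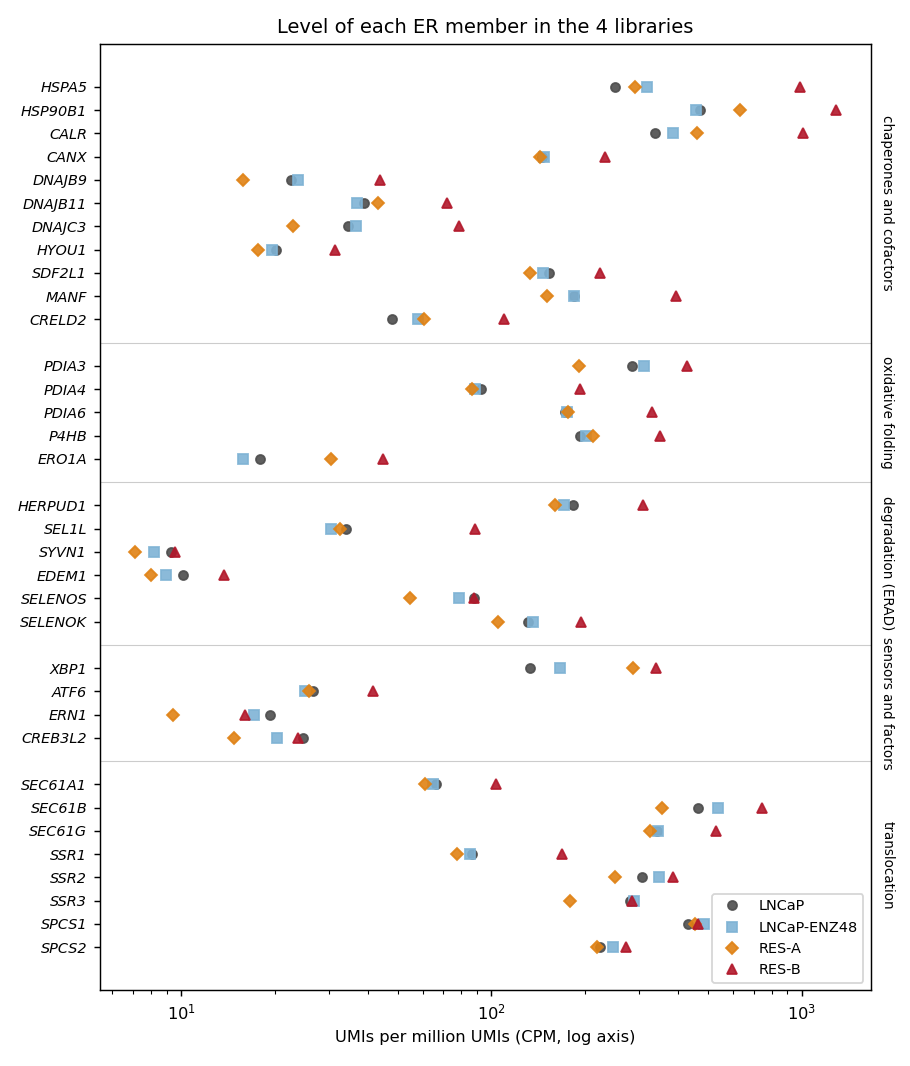
Level of each of the 34 ER genes (CPM, log axis) in LNCaP (circles), LNCaP-ENZ48 (squares), RES-A (diamonds) and RES-B (triangles), grouped by role. The RES-B triangle lies to the right of the other 3 symbols in 28 of the 33 genes past 10 CPM, while SPCS1 and SSR3 in the translocation group show RES-B among or beside the others.

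By summed level, the chaperones and their cofactors had the largest difference of the 5 role groups. HSPA5, the Hsp70 of the ER lumen (ENSG00000044574, chr9:125234853-125241382), was at 249.6 CPM in LNCaP and 318 in LNCaP-ENZ48, with 291 in RES-A against 988 in RES-B. The 3 other libraries lay close together below RES-B, which had a ratio of 1.98 [1.96, 2.01] to LNCaP, a 3.96-fold difference, and of 1.76 [1.74, 1.79] to RES-A. The 50 expressed genes nearest to HSPA5 had median ratios to LNCaP of 0.15 in RES-B and -0.33 in RES-A. HSP90B1, the Hsp90 of the ER (GRP94, chr12:103930107-103953931), was at 470 CPM in LNCaP and 458 in LNCaP-ENZ48, whereas RES-A had 633 and RES-B 1286. It was 2.73-fold higher in RES-B than in LNCaP (1.45 [1.43, 1.47]), and RES-A lay between (0.43 [0.41, 0.45]). CALR, the lectin chaperone calreticulin (chr19:12938578-12944489), was at 337 CPM in LNCaP and 385 in LNCaP-ENZ48, with 459 in RES-A against 1012 in RES-B. LNCaP was lowest and RES-B highest, with a ratio of 1.59 [1.56, 1.61]. Its membrane-bound relative CANX (calnexin) was at 143 to 148 CPM in LNCaP, LNCaP-ENZ48 and RES-A and at 233 in RES-B (0.67 [0.63, 0.72]).

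The cofactors of HSPA5 fell into those that were also lower in RES-A and those that were not. DNAJC3 (p58IPK), a J protein of HSPA5 that also restrains PERK (chr13:95677139-95794988), was at 34.5 CPM in LNCaP and 36.7 in LNCaP-ENZ48, whereas RES-A had 22.9 and RES-B 78.5. It was the one member past 1.5-fold in opposite directions in the resistant lines, with -0.59 [-0.69, -0.49] in RES-A and 1.19 [1.10, 1.27] in RES-B, and the difference of these ratios was not tested. The RES-A value lay at the limit and was just under 1.5-fold with 1 filter for all libraries, in cells called G1 and without the highest doublet scores. Its 50 neighbours had median ratios of -0.46 (RES-A) and 0.09 (RES-B). DNAJB9 (ERdj4), a J protein that acts on IRE1 and on misfolded chains, was at 22.5 CPM in LNCaP and 23.8 in LNCaP-ENZ48, with 15.9 in RES-A against 43.6 in RES-B, again with RES-A lowest (-0.51 [-0.63, -0.38]) and RES-B highest (0.95 [0.85, 1.06]). DNAJB11 (ERdj3), which brings clients to HSPA5, was at 38.9 CPM in LNCaP and 72.0 in RES-B (0.89 [0.81, 0.97]), with 36.8 in LNCaP-ENZ48 and 43.0 in RES-A. MANF, a secreted protein that slows the release of nucleotide from HSPA5, was at 185 CPM in LNCaP and in LNCaP-ENZ48, at 151 in RES-A and at 394.5 in RES-B (1.09 [1.06, 1.13]). CRELD2, an ER protein induced by stress, was at 48.0 CPM in LNCaP and 58.0 in LNCaP-ENZ48, whereas RES-A had 60.8 and RES-B 109.5 (1.19 [1.12, 1.26]). Unlike DNAJC3, DNAJB9 and MANF, CRELD2 was also above LNCaP in RES-A (0.34 [0.27, 0.42]). HYOU1, a large Hsp70-like exchange factor for HSPA5, was at 20.3 CPM in LNCaP and 31.3 in RES-B (0.63 [0.51, 0.74]), with 19.7 in LNCaP-ENZ48 and 17.7 in RES-A. SDF2L1, which keeps HSPA5 with its J proteins, was at 153.5 CPM in LNCaP, 146 in LNCaP-ENZ48 and 133 in RES-A, below 224 in RES-B (0.55 [0.51, 0.59]), and it was the one of the 11 chaperones and cofactors under 1.5-fold. The 11 together were at 1706 CPM in LNCaP and 1814 in LNCaP-ENZ48, with 1971 in RES-A against 4472 in RES-B, which is 2.62-fold that of LNCaP.

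The enzymes of oxidative folding were higher in RES-B as well, by less. PDIA4, PDIA6 and P4HB, disulfide isomerases of the lumen, had ratios in RES-B of 1.06 [1.01, 1.11], 0.93 [0.89, 0.97] and 0.85 [0.82, 0.89], and none of the 3 was past 1.5-fold in LNCaP-ENZ48 or RES-A. PDIA4 was at 86.6 to 92.4 CPM outside RES-B and at 193 in it, PDIA6 at 172 to 177 and 328, and P4HB at 193 to 213 and 348.5. PDIA3 (ERp57), the isomerase that works with CALR and CANX, was at 285 CPM in LNCaP and 309 in LNCaP-ENZ48, whereas RES-A had 192 and RES-B 426. It lay just inside the fold limit on both sides, with -0.57 [-0.60, -0.53] in RES-A and 0.58 [0.55, 0.61] in RES-B, with -0.42 and -0.26 as the medians of its neighbours. ERO1A, the oxidase that recharges the isomerases (chr14:52639915-52695900), was at 18.0 CPM in LNCaP and 15.8 in LNCaP-ENZ48, with 30.4 in RES-A against 44.9 in RES-B. In contrast to the isomerases it was past 1.5-fold in both resistant lines, at 0.76 [0.64, 0.88] in RES-A and 1.32 [1.21, 1.43] in RES-B.

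Genes of ERAD were uneven. SEL1L, the partner of the ubiquitin ligase in the retrotranslocation complex (chr14:81471547-81533853), was at 33.9 CPM in LNCaP and 30.5 in LNCaP-ENZ48, whereas RES-A had 32.5 and RES-B 88.8. Its ratio in RES-B (1.39 [1.31, 1.47]) was the fourth highest of all 34 genes, after HSPA5, CALR and HSP90B1, while SYVN1 (HRD1), the ligase that SEL1L binds, had 9.30 CPM in LNCaP and 9.57 in RES-B (0.04 [-0.14, 0.23]). HERPUD1, which organizes that complex, was at 184 CPM in LNCaP and 171.5 in LNCaP-ENZ48, with 160 in RES-A against 309 in RES-B (0.75 [0.71, 0.78]). EDEM1, a mannosidase-like protein that marks chains for degradation, had 10.2 CPM in LNCaP and 8.96 in LNCaP-ENZ48, whereas RES-A had 7.99 and RES-B 13.8 (0.43 [0.27, 0.60]). The selenoproteins SELENOS and SELENOK, membrane components of ERAD, differed from each other. SELENOS was at 87.8 CPM in LNCaP and 87.7 in RES-B, with a ratio whose interval ran from -0.06 to 0.06, and at 54.7 in RES-A (-0.68 [-0.75, -0.62]), where its neighbours had a median of -0.65. SELENOK was at 131 CPM in LNCaP and 194 in RES-B (0.57 [0.52, 0.61]), with 136 in LNCaP-ENZ48 and 105 in RES-A (-0.32 [-0.37, -0.27]).

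Among the sensors and transcription factors, XBP1 was the member higher in both resistant lines and ERN1 the one lowest in RES-A. XBP1 (chr22:28794555-28800597) was at 133 CPM in LNCaP and 166 in LNCaP-ENZ48, with 286 in RES-A against 340 in RES-B. It was above LNCaP in all 3 ENZ-exposed libraries, at 0.31 [0.27, 0.36], 1.10 [1.06, 1.14] and 1.35 [1.31, 1.39], and the difference between RES-B and RES-A (0.25 [0.22, 0.28]) was smaller than that of every other member but SPCS1. These counts come from the 3′ end of the mRNA and hold no information on its splicing by IRE1. ERN1, which encodes IRE1, was at 19.3 CPM in LNCaP and 17.1 in LNCaP-ENZ48, whereas RES-A had 9.38 and RES-B 16.1. It thus was not among the genes higher in RES-B, with -0.26 [-0.40, -0.13] there and -1.04 [-1.20, -0.89] in RES-A. ATF6 was at 26.6 CPM in LNCaP and 25.1 in LNCaP-ENZ48, with 25.9 in RES-A against 41.6 in RES-B (0.64 [0.55, 0.74], with 0.31 as the median of its neighbours). CREB3L2, a membrane-bound factor of the ATF6 kind that acts on genes of ER export, was at 24.8 CPM in LNCaP and 20.4 in LNCaP-ENZ48, whereas RES-A had 14.8 (-0.75 [-0.87, -0.62]) and RES-B 23.7 (-0.06 [-0.18, 0.05]).

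The translocation genes had the smallest difference in summed level between RES-B and LNCaP (1.35-fold), with 4 of 8 at least 1.5-fold higher (all genes 14.2%). SEC61A1, SEC61B and SEC61G, the subunits of the protein channel, had ratios in RES-B of 0.64 [0.58, 0.70], 0.69 [0.67, 0.72] and 0.63 [0.61, 0.66]. SEC61B was also below LNCaP in RES-A, at 356 CPM against 462 (-0.38 [-0.40, -0.35]), as was the median of its neighbours (-0.41). SSR1, SSR2 and SSR3, subunits of the TRAP complex that sits at the channel, differed among themselves. SSR1 was at 86.6 CPM in LNCaP and 169 in RES-B (0.96 [0.91, 1.01]), SSR2 at 306 and 385 (0.33 [0.30, 0.36]), and SSR3 at 279 and 284 (0.03 [-0.01, 0.06]). The medians of their neighbours were 0.34, 0.29 and 0.06, so the ratio of SSR2 was close to that of the genes around it. In RES-A, SSR3 was at 180 CPM (-0.63 [-0.67, -0.60]). SPCS1 and SPCS2, subunits of signal peptidase, had ratios in RES-B of 0.12 [0.09, 0.14] and 0.28 [0.24, 0.31], and SPCS1 spanned no more than 1.13-fold over the 4 libraries.

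**Figure D2:**
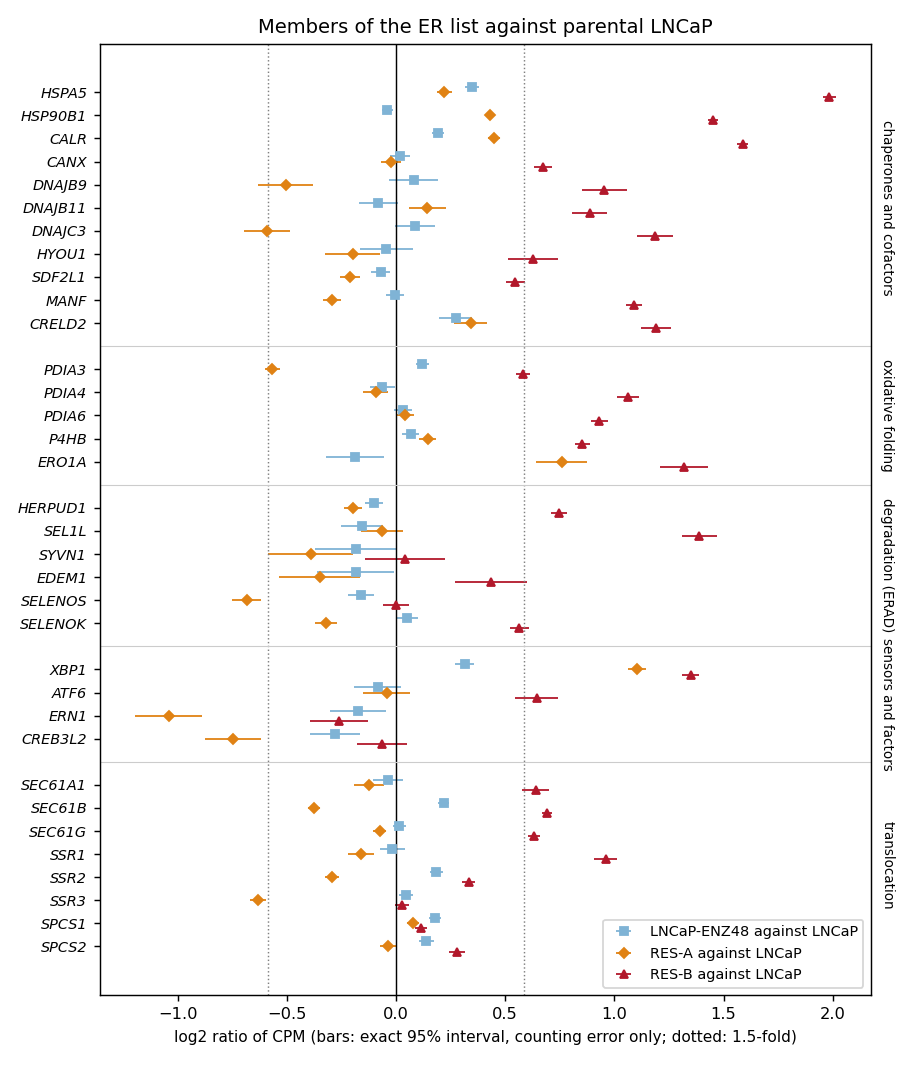
Log2 CPM ratio of each ER gene to LNCaP in LNCaP-ENZ48 (squares), RES-A (diamonds) and RES-B (triangles), with exact 95% intervals for counting error and dotted lines at 1.5-fold. All squares lie between the dotted lines, the triangles reach 1.98 (HSPA5), and the diamonds range from -1.04 (ERN1) to 1.10 (XBP1).

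The ratios of RES-A and RES-B above share the LNCaP library. In RES-B against RES-A directly, all 11 chaperones and cofactors and 4 of 5 enzymes of oxidative folding were at least 1.5-fold higher. So were all 5 ERAD genes past the minimum, 3 of 4 sensors and factors and 6 of 8 translocation genes. Of all genes, 12.2% were higher. EDEM1 is among the 5 ERAD genes but passed the minimum only through RES-B, so its call supports nothing. DNAJC3 (1.77 [1.68, 1.87]) and HSPA5 had the highest ratios. The 50 neighbours of each had medians of 0.58 and 0.43, where all genes had 0.09. Members with the promoter element had a median ratio of 1.06 in RES-B (9 of 10 at least 1.5-fold higher) and those with a window but no exact element had 0.64 (13 of 21 past the minimum), while in RES-A the medians were 0.13 and -0.29. Both counts in RES-B are larger shares than the 14.2% of all genes. The 2 groups also differ in role, and the part of role in their ratios was not tested. Among chaperones and cofactors without the exact element, the ratios in RES-B were 1.19 (DNAJC3), 1.09 (MANF), 0.95 (DNAJB9) and 0.89 (DNAJB11). Those with it had 1.98 (HSPA5), 1.59 (CALR), 1.45 (HSP90B1), 1.19 (CRELD2), 0.67 (CANX), 0.63 (HYOU1) and 0.55 (SDF2L1). Of 14 genes outside the list that held the element and passed the minimum, 1 was higher in RES-B. Their median ratio there was -0.01, where all genes had 0.11.

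Other genes of the secretory pathway had medians of 0.18 to 0.38 in RES-B, where all genes had 0.11 with 14.2% higher and 8.26% lower, and the shares of several of these lists lay near those of all genes. Of 24 other folding enzymes past the minimum, 5 were higher and 3 lower (median 0.18). QSOX1, a sulfhydryl oxidase (1.13 [0.99, 1.29]), and DNAJC1, an ER J protein (0.92 [0.84, 1.00]), had the highest ratios, and FKBP14 (-1.13) and FKBP10 (-1.07), prolyl isomerases that act on collagen, the lowest. Of 22 other ERAD genes, 4 were higher and 0 lower (median 0.38), led by the ubiquitin-conjugating enzyme UBE2J1 (0.90) and the channel component DERL2 (0.88), with TMUB1 (-0.07) lowest. Of 26 other genes of translocation and N-glycosylation, 9 were higher and 0 lower (median 0.34). The oligosaccharyltransferase subunit MAGT1 (1.14) and the signal peptidase subunit SEC11C (0.88) had the highest ratios of that list, while TMEM258 (-0.56) and SEC11A (-0.45), another catalytic subunit of signal peptidase, had the lowest. Of 24 genes of ER exit and retrieval, 4 were higher and 1 lower (median 0.28), with MIA3 (1.14) and TMED2 (1.01), which load and shape transport carriers, highest and TMED3 (-0.87) and SEC23A (-0.27) lowest.

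Genes of the PERK arm stood near the median of all genes in RES-B. Of 19 other sensors and PERK-arm genes past the minimum, 2 were higher and 3 lower in RES-B (median 0.06). CREB3L4, a membrane-bound factor of prostate and other secretory cells, was at 47.6 CPM in LNCaP and 104 in RES-B (1.13), and MBTPS1, the protease that cleaves ATF6, had 0.77. BBC3 (-1.45) and CHAC1 (-0.90), genes of cell death and glutathione breakdown, had the lowest ratios. ATF4 itself was at 444 CPM in LNCaP and 361 in LNCaP-ENZ48, with 398 in RES-A against 324 in RES-B, and its target DDIT3 (CHOP) at 109.5, 86.2, 104 and 122 CPM in the same order. In RES-A, 0 of the 19 were higher and 5 lower (median -0.12), with MBTPS1 (0.51) and EIF2S1 (0.21) highest and BBC3 (-1.66) and ATF3 (-1.33) lowest, and in LNCaP-ENZ48 0 were higher and 3 lower (median -0.23), with ATF3 (-0.80) and CEBPB (-0.68) lowest and CREB3 (0.15) and RTCB (0.09) highest.

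Chaperones outside the ER, most of them cytosolic and 2 mitochondrial (HSPD1 and HSPE1), had medians above 0 in both resistant lines. Of 26 past the minimum, 9 were at least 1.5-fold higher in RES-A (median 0.45) and 12 in RES-B (median 0.50), with 0 lower in either. Of all genes, 11.3% were higher and 11.5% lower in RES-A (median 0.02), and 14.2% and 8.26% in RES-B (median 0.11). HSP90AA1, a cytosolic Hsp90, was at 940 CPM in LNCaP and 1024 in LNCaP-ENZ48, whereas RES-A had 2741 and RES-B 2550. In RES-A HSPA8 (1.22) followed it, and in RES-B the highest were HSPH1 (1.72) and HSPA1B (1.45), the latter with a near-identical copy that makes its level uncertain. The lowest of the list were DNAJA2 (-0.09) and PTGES3 (0.05) in RES-A and HSPB1 (-0.54) and TCP1 (0.04) in RES-B. Between RES-B and RES-A, 2 of the 26 were higher and 1 lower (median -0.07), against 29 and 0 of the 33 ER genes. Of all genes, 12.2% were higher and 5.83% lower (median 0.09).

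Within RES-A, the medians of the other secretory lists ranged from -0.24 to -0.05, where all genes had 0.02 with 11.3% higher and 11.5% lower. For ERAD and for translocation and glycosylation the counts lay at or under these shares. The medians of their genes' upper bounds were 0.05 and 2.35e-05, which describe the counting error of single genes and not of the list median. Of the other folding enzymes, 2 were higher and 6 lower (median -0.20), with ERO1B (-1.60), an oxidase of the same kind as ERO1A, and TMX3 (-1.33) lowest and QSOX1 (1.24) and DNAJC1 (0.89) highest. Of the ER exit genes, 1 was higher and 5 lower (median -0.24), from TMED3 (-1.35) and MCFD2 (-1.07) to MIA3 (0.67) and TMED2 (0.32). Of the translocation and glycosylation genes, 0 were higher and 3 lower (median -0.06), with SEC11A (-1.27) and SEC11C (-0.66) lowest and MAGT1 (0.56) and SRPRB (0.46) highest. Of the other ERAD genes, 1 was higher and 1 lower (median -0.05), with UFD1 (0.98) and UBXN6 (0.52) highest and MAN1B1 (-0.61) and VCP (-0.40) lowest. ERO1A and ERO1B thus went opposite ways in RES-A, as did XBP1 and ERN1.

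In LNCaP-ENZ48 the ER genes differed little from LNCaP, and HSPA5 (0.35 [0.31, 0.38]) and XBP1 (0.31 [0.27, 0.36]) had the highest ratios, followed by CRELD2 (0.27 [0.20, 0.35]). CREB3L2 (-0.28 [-0.40, -0.17]) and ERO1A (-0.19 [-0.32, -0.06]) had the lowest. The other lists also had at most 1 gene past 1.5-fold, apart from the PERK arm above. The lower genes were TXNDC12 (-0.59) among folding enzymes, followed by PDIA5 (-0.55), and EDEM3 (-0.69) among ERAD genes.

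To ask whether the higher level in RES-B was a property of all its cells, 5000 UMIs were drawn at random from each cell (every kept cell held more), and those of 15 folding members (the 11 chaperones and cofactors, PDIA3, PDIA4, PDIA6 and P4HB) were summed. The median sum per cell was 12 UMIs in both LNCaP libraries and 13 in RES-A, against 25 in RES-B. The 10th and 90th percentiles were 7 and 18 in LNCaP, 7 and 20 in LNCaP-ENZ48 and RES-A, and 13 and 50 in RES-B. The lower end, the middle and the upper end of the RES-B distribution thus all lay above those of the 3 other libraries. Above the 90th percentile of LNCaP were 9.32% of LNCaP cells (exact binomial 95% interval 8.01 to 10.8), 13.9% of LNCaP-ENZ48 cells (12.9 to 15), 14.8% of RES-A cells (13.7 to 15.8) and 72.5% of RES-B cells (71.1 to 73.9). This percentile is a point on a range and not a border between cell types, and 427 of the 4061 RES-B cells were within 1 UMI of it. The variance over the mean, which is near 1 for counting error alone, was 1.82 in LNCaP and 1.97 in LNCaP-ENZ48, with 2.08 in RES-A against 10.1 in RES-B.

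**Figure D3:**
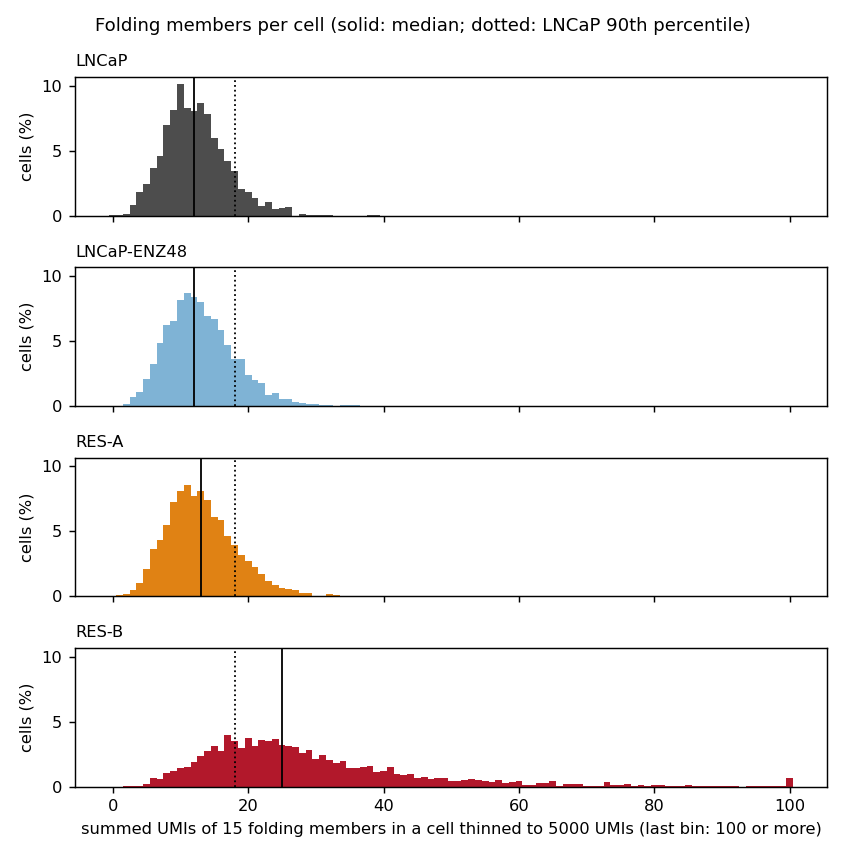
Percent of cells of each library (y axis) by the summed UMIs of 15 folding members in a cell thinned to 5000 UMIs (x axis, last bin 100 or more). The solid line is the median of the library (12, 12, 13 and 25 from top to bottom) and the dotted line the 90th percentile of LNCaP, and the RES-B cells form 1 broad distribution with a long right side.

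The spread was not the same for all members. HSPA5 had a variance over mean of 1.36 in LNCaP and 1.63 in LNCaP-ENZ48, whereas RES-A had 1.60 and RES-B 5.16, and HSP90B1 had 1.46, 1.41, 1.47 and 4.02. CALR (2.20), HERPUD1 (2.18) and MANF (2.09) followed in RES-B, whereas CANX (1.10) and SPCS1 (1.10) stayed near 1 there. For the same relative spread this measure grows with the level. In RES-B the mean UMIs per cell were 5.03 for CALR, 1.54 for HERPUD1 and 1.99 for MANF. CANX had 1.19 and SPCS1 2.31. ATF6 (1.06) had only 0.21, so its value near 1 does not show a smaller relative spread. XBP1, though at a similar level in both resistant lines, had 1.55 in RES-A and 1.34 in RES-B. By the phase called from cell cycle genes, the mean folding sum in RES-B was 30.1 in G1, 22.8 in S and 27.2 in G2/M cells, against 12.5, 11.3 and 11.8 in LNCaP. RES-B was thus above LNCaP in each phase.

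The ER folding members also varied together among RES-B cells. Pearson correlations of log(1 + UMIs) were taken between members among the thinned cells of 1 library, which share a library, its handling and a fixed depth. For HSPA5 and HSP90B1, r was 0.11 in LNCaP (1782 cells), 0.09 in LNCaP-ENZ48 (4315 cells), 0.12 in RES-A (4569 cells) and 0.52 in RES-B (4061 cells). For HSPA5 and MANF it was 0.12, 0.13, 0.16 and 0.50, and for HSPA5 and CALR 0.15, 0.13, 0.14 and 0.43. Over all pairs of folding members that reached 0.1 UMIs per cell, the median r was 0.032 in LNCaP and 0.033 in LNCaP-ENZ48, with 0.035 in RES-A (78 pairs) against 0.144 in RES-B, and over all pairs of 4194 genes at that level it was near 0.001 in every library. In RES-B 71 of 105 folding pairs were over 0.1, as were 163 of the 465 pairs of all members, while in the 3 other libraries 2 to 8 folding pairs were. Of the 8792721 pairs of all genes, 16329 were over 0.1 in RES-B, 18779 in LNCaP, 13631 in LNCaP-ENZ48 and 11803 in RES-A. Correlations of the size seen outside RES-B are weak for sparse counts and are given as values only. Since r in counts grows with the level, RES-B cells were thinned further, to 2110 UMIs, where their mean folding sum (12.3) equalled that of LNCaP. This was chosen after seeing the data. At this level the median r of the folding pairs was 0.082, r for HSPA5 and HSP90B1 was 0.38, and the variance over mean of the folding sum was 4.82, each above its LNCaP value. Only the sum was matched and not each gene. HSPA5 was still at 2.17 UMIs per cell, against 1.31 in LNCaP, so r of its pairs was not compared at equal level.

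**Figure D4:**
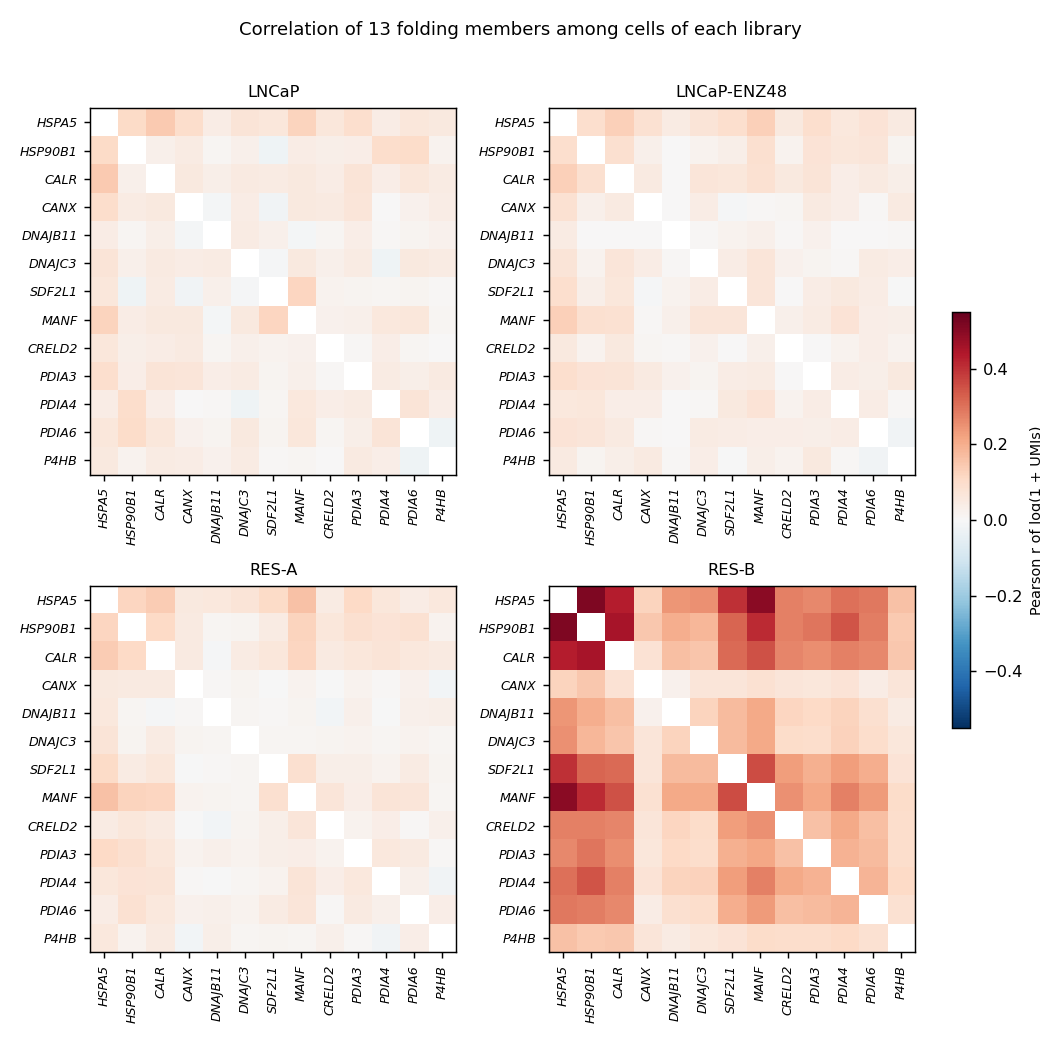
Pearson r of log(1 + UMIs) between pairs of 13 folding members among the thinned cells of each library, from blue (negative) to red (positive), with the diagonal blank. DNAJB9 and HYOU1 are left out because they were under 0.1 UMIs per cell in RES-A. The RES-B panel is dark around HSPA5, HSP90B1, CALR, SDF2L1 and MANF (up to 0.52), and CANX and P4HB are paler.

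The members differed in how far they took part. In RES-B, r with the folding sum (each member left out of its own sum) was highest for HSPA5 (0.64), HSP90B1 (0.61), CALR (0.55), MANF (0.54) and SDF2L1 (0.45), and HERPUD1 (0.31) was the highest of the ERAD genes. SEC61B (0.33) led the translocation genes, and SPCS1 (0.09) was lowest there. XBP1 had 0.07, ERO1A 0.03, ATF6 0.02 and ERN1 0.01. Sparse counts lower r, and these 4 genes had 1.77, 0.24, 0.21 and 0.08 UMIs per cell. ERN1 was thus under the minimum of 0.1 used for the pairs. HYOU1, at 0.16 UMIs per cell, had r of 0.18. XBP1 and ERO1A were thus among the genes with the largest ratios in RES-B between libraries but among those with the smallest r within it. In LNCaP, r of XBP1 with the folding sum was 0.11.

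To show the size of this covariation, the 10% of cells with the most HSPA5 were set beside the 10% with the least. In RES-B (406 cells in each, with 0.10 and 16.9 HSPA5 UMIs per cell of 5000), HSP90B1 was at 3.44 and 14.4 UMIs per cell, which is 4.17-fold (counting interval 3.93 to 4.42). MANF was at 0.82 and 4.87 (5.97-fold, 5.31 to 6.73), SDF2L1 at 0.53 and 2.70 (5.05-fold, 4.36 to 5.86) and CALR at 3.01 and 8.74 (2.90-fold, 2.72 to 3.10). In LNCaP (178 cells in each) the cells compared spanned a smaller range, from 0 to 4.10 HSPA5 UMIs, and the same 4 genes differed by 1.57, 2.14, 1.65 and 1.56-fold. The 10 chaperones and cofactors other than HSPA5 together differed by 3.69-fold in RES-B and 1.65-fold in LNCaP, ERAD members by 3.04 and 1.42-fold, and translocation members by 1.69 and 1.30-fold. XBP1 differed by 1.28-fold in RES-B (1.15 to 1.42) and CANX by 1.45-fold (1.27 to 1.64). The chaperones outside the ER differed by 0.96-fold in RES-B, from 57.4 to 55.0 UMIs per cell. The share of cells called G1 was 70.9% in the HSPA5-low and 85.2% in the HSPA5-high cells of RES-B, and 62.9% and 88.2% in LNCaP, and its part in these folds was not tested. In cells called G1 alone the median r of folding pairs in RES-B was 0.141. Median total UMIs were 12036.5 and 11610 and median mitochondrial shares 11.7% and 12.3% in the HSPA5-low and HSPA5-high cells of RES-B.

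**Figure D5:**
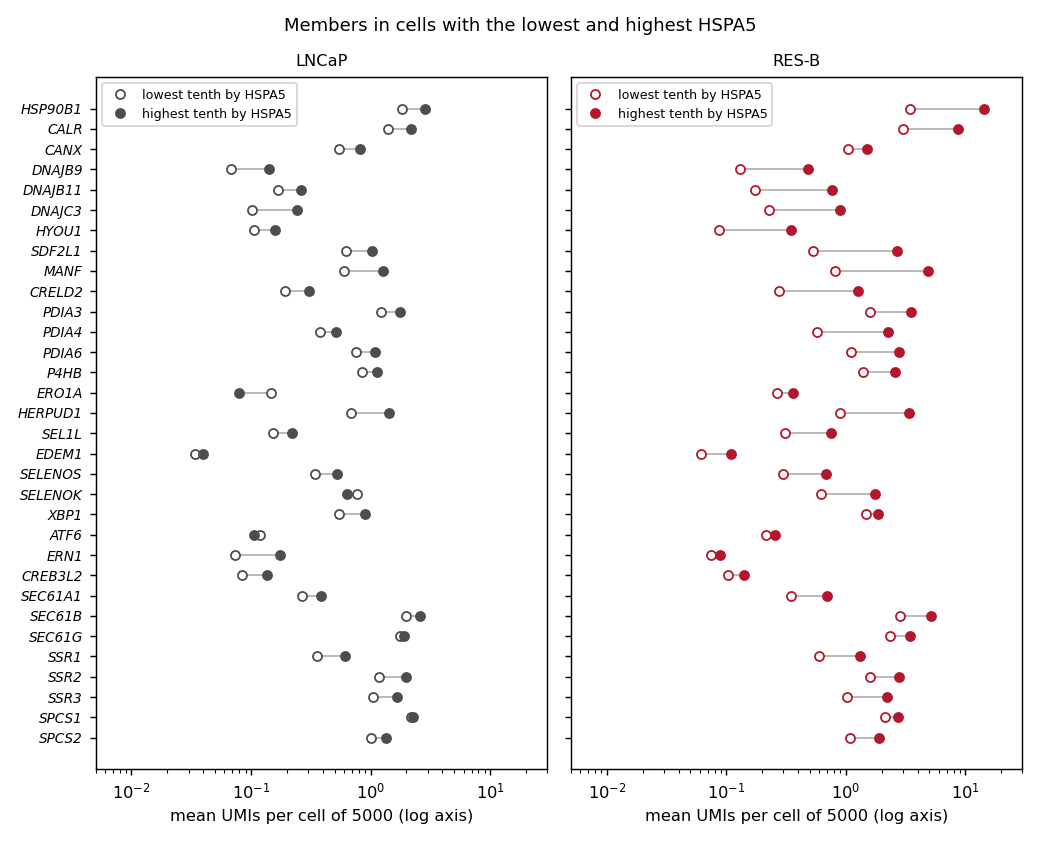
Mean UMIs per cell of 5000 (log axis) of each ER gene other than HSPA5 and SYVN1 in the 10% of cells with the least HSPA5 (open circles) and the 10% with the most (filled circles), for LNCaP (left) and RES-B (right). In RES-B the filled circle lies furthest from the open one for MANF (5.97-fold) and SDF2L1 (5.05-fold), and lies near it for SPCS1 (1.27-fold) and XBP1 (1.28-fold).

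Of 4194 genes ranked by their lowest r with the folding sum over the 4 libraries, those outside the list with the highest value were PPIB, NUCB2, MYDGF, LMAN1, RRBP1, KDELR2, TMEM258, MORF4L2, ARMCX3 and COPB2. PPIB, the cyclophilin of the ER, had r of 0.18 in LNCaP and 0.20 in LNCaP-ENZ48, whereas RES-A had 0.14 and RES-B 0.36. NUCB2, a calcium-binding protein, had 0.13, 0.13, 0.11 and 0.33, and MYDGF, a secreted factor held in the ER, 0.14, 0.11, 0.07 and 0.29. LMAN1 and KDELR2, which carry glycoproteins out of the ER and bring escaped chaperones back, had 0.24 and 0.22 in RES-B, and their library ratios there were 0.17 and 0.29. PPIB covaried with the chaperones although its own level in RES-B (597 CPM) was close to that in LNCaP (537 CPM). For the genes from RRBP1 to COPB2, r was under 0.1 in every library but RES-B, where it was 0.11 (COPB2) to 0.22 (KDELR2).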

How the data were processed

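The 4 libraries were prepared by the authors from sorted live cells with a droplet-based 3′ assay, and the deposited values are UMI counts per gene and cell barcode from Cell Ranger 3.0.2 (GRCh38), per the labels and file headers. Groups came from the treatment labels and titles. Cells were kept by the gene, UMI and mitochondrial limits of the study (LNCaP 16000 to 50000 UMIs, the others 5000 to 25000). Doublets were not removed, since Scrublet (scanpy 1.11.5) called only 2 to 13 cells per library, and an alternative left out the highest scores. UMIs were summed per library and scaled to CPM, with exact Poisson and conditional binomial (Clopper-Pearson) intervals. With 1 library per group no test was run. A gene was called past 1.5-fold where its counting interval also lay on 1 side of 0. Cells were thinned at random to 5000 UMIs for values per cell, ties in HSPA5 were ordered by its share before thinning, and phases were called with 43 S and 54 G2/M genes. edgeR 4.0.16 and DESeq2 1.42.0 gave alternative scalings only. The ratios and correlations were tested on simulated data. Gene positions came from GENCODE 44 (33113 of 33538 IDs matched) and promoters from RefSeq. The members, lists and named genes were chosen with earlier results of these data known. Genes named were all members, and the 2 highest and 2 lowest of each other list in the comparisons described, and the 10 genes most like the folding sum. Some genes that this rule or the marker list names are not reported here. C-terminal retrieval signals were planned and were not analysed here.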

Additional observations from a re-analysis of the deposited data

Results flagged for a closer look

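DNAJC3, the J protein of HSPA5 that restrains PERK, was past 1.5-fold in opposite directions in the 2 resistant lines, with a log2 ratio to LNCaP of -0.59 for RES-A and 1.19 for RES-B. The 50 neighbours of DNAJC3 had median ratios of -0.46 (RES-A) and 0.09 (RES-B), and their part in its ratios was not tested. Each line is 1 library, so the difference was not tested. The RES-A ratio fell just under 1.5-fold with 1 filter for all libraries, in cells called G1 and without the cells of highest doublet score, and it kept its sign in each.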

How the results depend on the processing

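The medians and counts of the ER genes, the ratio of each member and the median pair correlations were recomputed with 1 choice changed at a time. Values of the folding sum, the HSPA5-high and HSPA5-low cells, the other lists, the promoter groups and the ranked genes were not. Of the recomputed medians, counts and median correlations, 120 of 138 kept their direction and moved by less than their interval or 1.5 times. For a list median, that interval is the median of its members' bounds. Of 816 recomputed ratios of single members, 577 stayed inside their counting interval, 230 moved out of it and 9 reversed. Of the 230, TMM scaling gave 87, DESeq2 size factors 78 and cells called G1 51. The brackets of single genes thus do not cover the choice of scaling. No paired analysis was possible because each group is 1 library and the labels give no replicate numbers. TMM scaling moved the median of the ER genes to 0.11 in LNCaP-ENZ48 and 0.59 in RES-B, and DESeq2 size factors to 0.12 and 0.59. These scalings put the median of all genes in LNCaP-ENZ48 at 0.02 and 0.03 in place of -0.07, and under them the ratios of HSP90B1 (0.0561 and 0.0620), SDF2L1 (0.0259 and 0.0318) and PDIA4 (0.0338 and 0.0397) in LNCaP-ENZ48 turned positive, as did HERPUD1 (0.00187, DESeq2), while SPCS1 in RES-B against RES-A turned negative (-0.0148 and -0.0216). In cells called G1 the median in LNCaP-ENZ48 was -0.0110. A minimum of 50 CPM, which leaves 23 members, gave 1 higher and 2 lower in RES-A, and 15 higher in RES-B. Without thinning, the median r of all members was 0.0850 in LNCaP, 0.0583 in LNCaP-ENZ48 and 0.137 in RES-B, and of folding members 0.103, 0.0659, 0.0673 (RES-A) and 0.223. At 10000 UMIs per cell RES-B had 0.112 (all members) and 0.196 (folding members). With RES-B thinned to the folding level of LNCaP, chosen after seeing the data, these were 0.0372 and 0.0824, the latter above the folding values of the 3 other libraries at 5000 UMIs. RES-B also had the highest median r of folding pairs at 10000 UMIs and without thinning. Depth limits EDEM1, SYVN1 and ERN1, the members with the widest intervals.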

Other observations

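The promoter element was also found outside the ER genes. Outside the list, 34 genes held either form in a RefSeq window and 14 of them were past 10 CPM. In RES-B against LNCaP, 1 of the 14 was at least 1.5-fold higher (all genes 14.2%) and 0 were lower (all genes 8.26%). Their median was -0.01, where all genes had 0.11, unlike the members with the element (1.06). FICD, the enzyme that attaches AMP to HSPA5 and removes it, was at 8.78 CPM in LNCaP and 8.83 in LNCaP-ENZ48, with 6.78 in RES-A against 17.3 in RES-B (0.97 [0.81, 1.14]), and it passed the minimum only through RES-B, so its ratio is a description. The next highest ratio in RES-B was that of SERP1, which protects membrane proteins at the SEC61 channel (0.55 [0.52, 0.58]), and the lowest that of PLS3 (-0.39). In RES-A against LNCaP, 0 of the 14 were higher (all genes 11.3%) and 2 were lower (all genes 11.5%), ERO1B (-1.60) and EIF2A (-0.70). The lower count lay near the share of all genes. These genes are named after their values were seen.

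DDIT3 and TRIB3, genes of the PERK arm, were also picked after values were seen. In LNCaP-ENZ48, DDIT3 was at 0.274 UMIs per cell of 5000 in the 10% of cells with the least HSPA5 and 0.845 in the 10% with the most (3.08-fold, counting interval 2.50 to 3.83, 431 cells each). TRIB3 was at 0.241 and 0.661 (2.74-fold, 2.18 to 3.46). In RES-B the folds were 1.79 (1.5 to 2.13) and 1.09 (0.90 to 1.32), in LNCaP 1.26 (0.93 to 1.70) and 1.80 (1.37 to 2.38), and in RES-A 1.59 (1.31 to 1.94) and 1.57 (1.18 to 2.10). For ERO1A the folds were 0.54 (0.26 to 1.07) in LNCaP, 0.43 (0.25 to 0.72) in LNCaP-ENZ48, 0.90 (0.63 to 1.28) in RES-A and 1.36 (1.05 to 1.76) in RES-B. The difference between libraries was not tested.

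Ranked in RES-B alone, the genes outside the list with the highest r to the folding sum were PPIB (0.36), NUCB2 (0.33), MYDGF (0.29), MLEC (0.26), SEC11C (0.25) and SERP1 (0.25). CHCHD2, a mitochondrial protein, was ninth with 0.22, and had 0.02 in LNCaP.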
